A study of Mus musculus with 21 samples.

Results

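Parp3, Parp9, Parp10, Parp11, Parp12, Parp14 and Dtx3l were followed as a group of 7 genes of the ADP-ribosylation machinery that are linked to interferon. They were found by symbol in the count table, with 1 row each among 48474 rows, and all 7 were among the 18248 genes that passed the filter on low counts. The rule names genes by symbol and sets no threshold on a value, and it was written with earlier results of these data known.

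ADP-ribosyltransferases of the PARP family take ADP-ribose from NAD and attach it to proteins or nucleic acids. Most of the enzymes described here attach single ADP-ribose units, and in many tissues interferons raise their transcription. Parp9 forms a stable complex with the E3 ubiquitin ligase Dtx3l, and Parp14 carries macrodomains, the modules that bind or remove ADP-ribose.

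Bulk RNAseq had been performed on neocortex of 11 control mice (labelled WT, monogenic littermates of the rNLS8 mice) and 10 rNLS8 mice (labelled TG). rNLS8 mice carry NEFH-tTA line 8 together with tetO-hTDP-43ΔNLS line 4 on a C57BL/6J background, so that human TDP-43 without its nuclear localization signal is made once doxycycline is withdrawn, almost only in neurons because of the neurofilament heavy chain promoter. All 21 mice, controls included, were 17 to 19 weeks old when they received an injection into the cerebral ventricle of 10 µL holding 350 µg of an antisense oligonucleotide without a target (5′-cctataggactatccaggaa-3′), chow with 200 mg/kg doxycycline until 2 weeks later and then 3 weeks without it. Batch A held 4 control and 3 rNLS8 mice, batch B held 7 and 7, the rNLS8 mice came from few litters, and the labels gave no sex. Mice are numbered within genotype, with numbers 8 and above in batch A.

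Total counts were between 20700912 and 22263809 per mouse. Across all genes tested, 4190 were higher and 3964 lower in rNLS8 mice, with a median log2 fold change of -0.0007. The reads of Tardbp, to which the table may also assign reads of the human transgene, reached 2363 to 5053 normalised counts in rNLS8 mice against 2253 to 2827 in controls (log2 fold change 0.62 ± 0.07 SE, edgeR adjusted p = 1.496e-07). rNLS8 mouse 9 lay inside the control range for Tardbp, and the 3 rNLS8 mice of batch A had a mean of 2786 ± 378 (SD) against 4676 ± 244 in the 7 of batch B. In batch A alone the Tardbp difference was 0.26 ± 0.12 (adjusted p = 0.1909). Of the neocortex markers, Tbr1, Cux2, Fezf2 and Rorb were measured and not called, and Neurod6 fell by 0.28 ± 0.09 (SE) on the log2 scale (edgeR adjusted p = 0.0134), a call lost with scaling by library size only and in batch A alone. Neuron markers gave a summed level of 4033 to 5350 CPM (counts scaled to a common library total) in rNLS8 mice and 5392 to 6737 in controls, so the groups did not overlap. Most of this difference lay in Snap25 and Syt1. Without them, a choice made after seeing the data, the other 5 neuron markers summed to 2115 to 3020 CPM in rNLS8 mice and 2326 to 2876 in controls, and the groups overlapped. Of these 5, the glutamate transporter gene Slc17a7 (0.055 ± 0.071), Rbfox3 (-0.10 ± 0.06) and Tubb3 (-0.065 ± 0.073) were not called. Gad1 (-0.45 ± 0.08, edgeR adjusted p = 3.054e-05) and Gad2 (-0.32 ± 0.13, edgeR adjusted p = 0.04134) were called lower. The Gad1 call was lost in batch A alone, and the Gad2 call in 11 of 21 fits without a single mouse. For any gene in bulk tissue, fewer cells of a type and less RNA per cell cannot be told apart.

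The comparison of genotypes asks which of these genes respond to neuronal TDP-43ΔNLS. Of the 7, 6 were higher in rNLS8 neocortex, by between 1.84-fold for Parp12 and 2.57-fold for Parp14. Parp11 went the other way and was slightly lower, at 0.88 of the control level. That made 6 of 7 genes higher and 1 of 7 lower at an adjusted p below 0.05 (edgeR quasi-likelihood test with batch in the model, Benjamini-Hochberg adjustment), where 23.0% of all genes tested were called higher and 21.7% lower. The median log2 fold change over the 7 genes was 1.02, against -0.0007 over all genes tested.

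**Figure D1:**
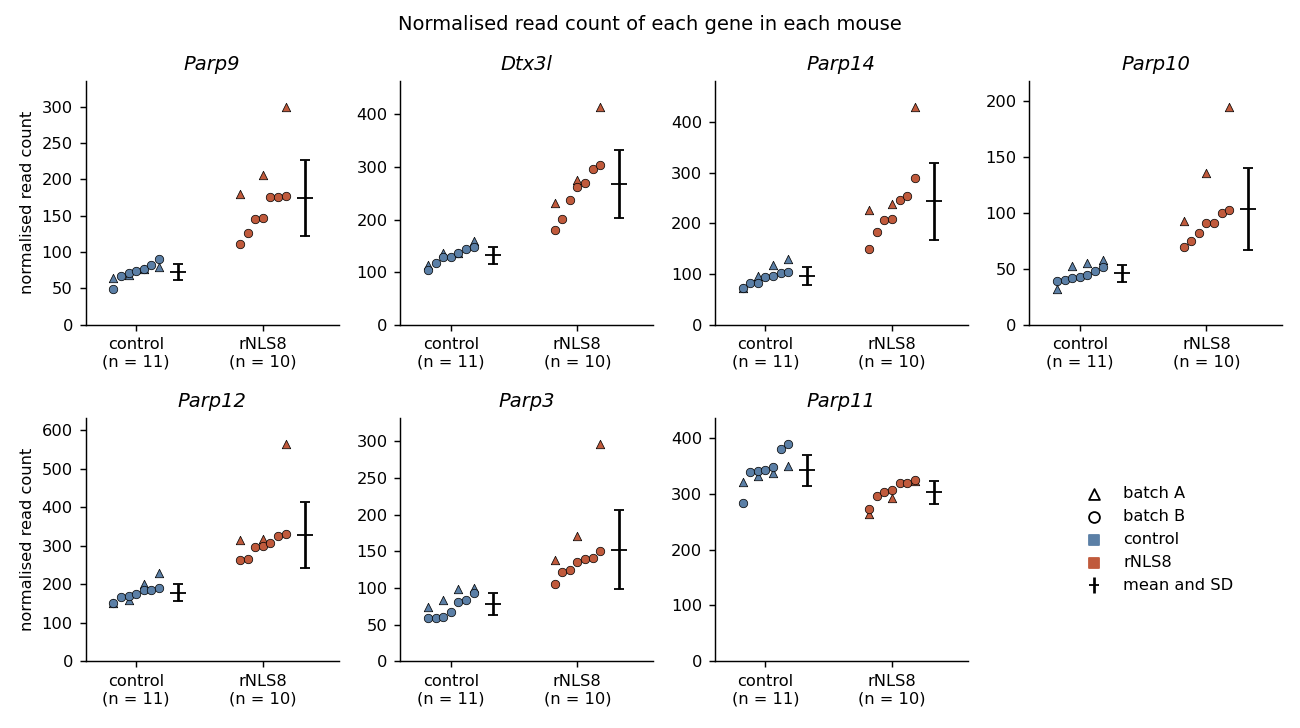
Normalised read count of each gene (vertical axis, from 0) in 11 control and 10 rNLS8 mice, with triangles for batch A, circles for batch B and a bar for the mean and SD. In 6 genes every rNLS8 mouse lay above every control, and in Parp11 the groups overlapped, between 264 and 324 in rNLS8 mice and 283 and 389 in controls.

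Parp9 and Dtx3l encode partners in the same complex. Parp9 ranged from 48.7 to 90.1 normalised counts in controls (median 74.1) and from 111.7 to 299.6 in rNLS8 mice (median 175.8). It rose by a log2 fold change of 1.26 ± 0.12 (SE), or 2.39-fold (adjusted p = 1.372e-08). Dtx3l ranged from 103.8 to 160.1 in controls (median 136.7) and from 180.3 to 413.9 in rNLS8 mice (median 265.7), with a log2 fold change of 1.02 ± 0.11 (2.03-fold, adjusted p = 3.855e-08). For both genes the lowest rNLS8 mouse was mouse 1 and the highest mouse 8, and no rNLS8 mouse reached down to the controls.

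Parp14, the macrodomain-bearing mono-ADP-ribosyltransferase, showed the largest estimated fold change of the group over all mice. It lay between 71.9 and 129.3 normalised counts in controls (median 95.7) and between 148.9 and 429.0 in rNLS8 mice (median 232.3). The log2 fold change was 1.36 ± 0.13 (adjusted p = 9.27e-09), and 142 of the 18248 genes tested had a higher one. In batch A alone the estimate of Parp9 was larger (1.68 ± 0.19 against 1.55 ± 0.25). The ratio of Parp9 to Parp14 did not differ past the threshold between genotypes (adjusted p = 0.418, exact permutation).

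Parp10, a mono-ADP-ribosyltransferase with ubiquitin-interacting motifs, was the least counted gene of the group in controls, with 30 to 56 raw counts per mouse. Its normalised counts were 31.6 to 57.5 in controls (median 44.3) and 69.6 to 194.7 in rNLS8 mice (median 92.1), again without overlap. The log2 fold change was 1.17 ± 0.13 (2.25-fold, adjusted p = 1.005e-07).

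Parp12, which carries CCCH zinc fingers like the antiviral protein Zc3hav1, had 151.7 to 229.0 normalised counts in controls (median 175.3) and 264.5 to 565.1 in rNLS8 mice (median 311.6). Its log2 fold change was 0.88 ± 0.10 (adjusted p = 1.046e-07). The other 9 rNLS8 mice lay between 264.5 and 330.8, and mouse 8 stood apart at 565.1.

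Parp3, best known for its role at DNA strand breaks, was at 58.7 to 99.6 normalised counts in controls (median 80.4) and 105.8 to 296.7 in rNLS8 mice (median 139.0). It rose by 0.98 ± 0.12 on the log2 scale (1.97-fold, adjusted p = 4.802e-07). The gap between the groups was the narrowest here, 99.6 in the highest control against 105.8 in the lowest rNLS8 mouse.

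Complete separation of the groups, with every rNLS8 mouse above every control, was found for these 6 genes and for 3.85% of all genes tested. Parp9, Parp10, Parp12, Parp14, Dtx3l and Parp3 had between 142 and 324 genes with a higher log2 fold change than their own.

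Parp11, a mono-ADP-ribosyltransferase with a WWE domain, had 282.8 to 388.9 normalised counts in controls (median 340.0) and 264.3 to 324.3 in rNLS8 mice (median 304.5). It fell by 0.18 ± 0.05 on the log2 scale (adjusted p = 0.007316). Only 2 of the 10 rNLS8 mice lay below the lowest control. The call was lost with scaling by library size alone (-0.10, adjusted p = 0.1418) and in batch A alone (-0.17 ± 0.12, adjusted p = 0.3985).

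Levels were compared between genes per kilobase of the longest coding transcript. In controls Parp11 was the most abundant at 4.27 ± 0.35 CPM per kilobase (SD, n = 11), followed by Parp12 at 2.59 ± 0.33. Parp3 (1.24 ± 0.24), Dtx3l (1.17 ± 0.14) and Parp9 (0.960 ± 0.143) came next, and Parp10 (0.639 ± 0.109) and Parp14 (0.601 ± 0.112) were lowest. The ranges of Parp11, Parp12 and Parp3 did not overlap in controls, and those of each gene from Parp3 down overlapped the next. In rNLS8 mice Parp12 reached 4.77 ± 1.25 (SD, n = 10) and Parp11 was at 3.78 ± 0.26. Parp3, Dtx3l and Parp9 were then at 2.41 ± 0.85, 2.36 ± 0.57 and 2.30 ± 0.69, and Parp14 and Parp10 at 1.54 ± 0.48 and 1.44 ± 0.51. Here the range of each gene overlapped the next in order, and the means of Parp12 and Parp11 had changed places.

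The spread from mouse to mouse among the 6 genes that rose depended on rNLS8 mouse 8. With all mice, their coefficients of variation were 24.3% to 35.6% in rNLS8 mice and 12.3% to 19.6% in controls, where counting error alone corresponds to 5.41% to 9.65% and 7.61% to 15.01% at the mean raw counts of the groups. Without mouse 8, an alternative chosen after seeing the data, the coefficient fell below that of controls for Parp12 (7.93% against 12.9%) and Parp3 (13.4% against 19.6%) and was close to it for Parp14 (18.6% against 18.7%). It remained above the controls for Parp10 (20.7% against 17.1%), Parp9 (18.7% against 14.9%) and Dtx3l (16.7% against 12.3%). The variation of Parp11 was 6.88% in rNLS8 mice and 8.15% in controls, close to its counting error of 5.65% and 5.50%. The difference in spread between genotypes was not tested.

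Each batch was then examined on its own. In batch B, 7 rNLS8 mice against 7 controls, the log2 fold changes were 1.27 ± 0.13 for Parp14, 1.04 ± 0.13 for Parp9, 0.98 ± 0.11 for Parp10, 0.94 ± 0.12 for Dtx3l, 0.86 ± 0.11 for Parp3 and 0.76 ± 0.07 for Parp12, with adjusted p from 1.78e-07 to 8.25e-06 in edgeR. In batch A, 3 rNLS8 mice against 4 controls, they were 1.55 ± 0.25, 1.68 ± 0.19, 1.55 ± 0.28, 1.19 ± 0.20, 1.20 ± 0.25 and 1.13 ± 0.23 in the same order, with adjusted p from 0.0005167 to 0.01158. All 6 genes were called higher in each batch, where 19.3% of genes in batch B and 6.99% in batch A were called higher. Parp11 fell by 0.18 ± 0.07 in batch B (adjusted p = 0.03447), where 19.8% of genes were called lower.

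With all mice, the point estimates of the 6 rising genes were larger in batch A, which for Parp14, Dtx3l and Parp3 depended on rNLS8 mouse 8. Without that mouse, which leaves 2 rNLS8 mice against 4 controls in batch A and was tried after seeing the data, the estimates there were 1.19 ± 0.22 for Parp14, 0.91 ± 0.17 for Dtx3l and 0.81 ± 0.20 for Parp3, each below its value in batch B. Those of Parp9 (1.44 ± 0.18), Parp10 (1.24 ± 0.27) and Parp12 (0.79 ± 0.18) were still above it. All 6 were called higher without mouse 8, with edgeR adjusted p from 0.001778 to 0.03962, where 4.20% of genes were called higher. The interaction of genotype and batch was largest for Parp9, at 0.61 ± 0.24 on the log2 scale (unadjusted p = 0.01725, edgeR adjusted p = 0.8529), and was past the threshold for none of the 7 genes. Over all genes edgeR called 0 interactions, with 1030 genes at an unadjusted p below 0.05, and DESeq2 called 1, which was Tardbp (-0.57 for A minus B, adjusted p = 0.0003377).

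**Figure D2:**
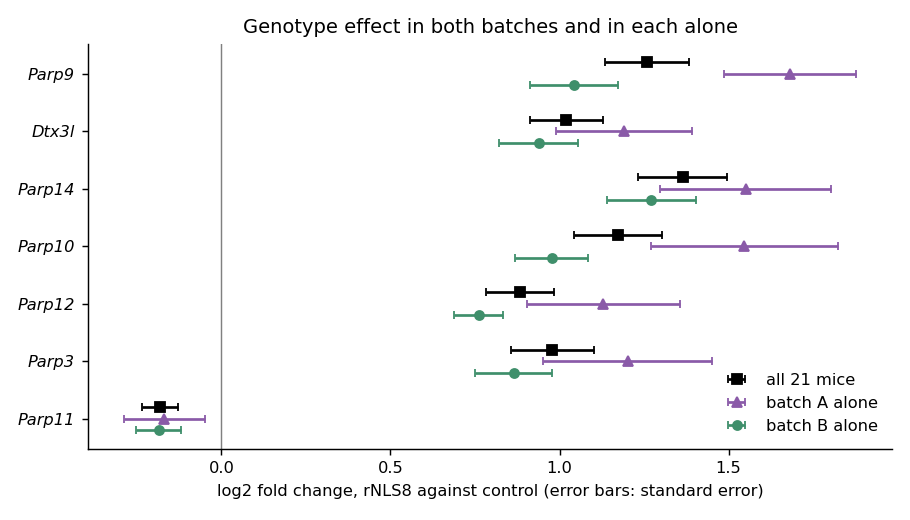
Log2 fold change of rNLS8 against control mice (horizontal axis, error bars are standard errors) for each gene in all 21 mice (squares), batch A alone (triangles) and batch B alone (circles). Every estimate of the 6 rising genes lay between 0.76 and 1.68, and those of Parp11 between -0.18 and -0.17.

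Within the rNLS8 group, mice 8 and 1 were at the ends of the range for all 6 rising genes. Mouse 8 of batch A ranked first of 10 for all 6 rising genes, at 4.12 times the control mean for Parp9, 3.13 for Dtx3l, 4.51 for Parp14, 4.24 for Parp10, 3.16 for Parp12 and 3.80 for Parp3. Mouse 1 of batch B ranked last for all 6, at 1.35 to 1.56 times the control mean. The order of the other mice differed between genes, and mouse 9 ranked 2 for Parp3, Parp9 and Parp10 but 5 for Parp12, 6 for Parp14 and 8 for Dtx3l. For Parp11, mice 8 and 1 ranked 2 and 5 of 10, and mouse 3 was highest.

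**Figure D3:**
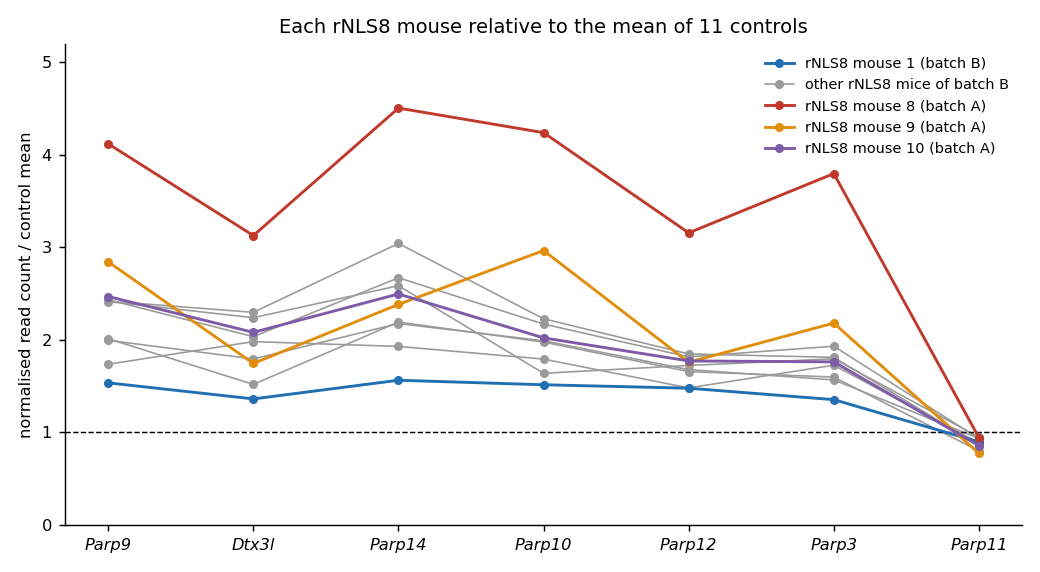
Normalised read count of each gene in each of the 10 rNLS8 mice, divided by the mean of the 11 controls (vertical axis, dashed line at 1), with lines joining the values of a mouse. Mouse 8 lay above the others from Parp9 to Parp3, mouse 1 below them, and all 10 lay between 0.77 and 0.95 for Parp11.

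Mouse 8 differed from the other rNLS8 mice in further measures. Its summed level of the monocyte and macrophage markers Ccr2, Ly6c2, Mrc1, Cd163, Lyz2 and Ms4a7 was 63.8 CPM, against 14.5 to 27.3 in the other rNLS8 mice and 14.9 to 23.0 in controls. Its 10 microglia markers summed to 552 CPM (404 to 491 in the other rNLS8 mice, 386 to 440 in controls). Its neuron markers had the lowest sum of the group, 4033 CPM against 4344 to 5350 in the other rNLS8 mice, and its astrocyte markers the highest, 4373 against 3120 to 4328, which lay within the 3944 to 5190 of controls. Its total counts of 21242975 were within the range of the others. The part of these measures in its PARP levels was not tested. Without mouse 8, the log2 fold changes were 1.25 ± 0.11 for Parp14, 1.16 ± 0.11 for Parp9, 1.05 ± 0.11 for Parp10, 0.93 ± 0.10 for Dtx3l, 0.85 ± 0.10 for Parp3 and 0.77 ± 0.07 for Parp12, with adjusted p from 8.835e-09 to 2.019e-07, and Parp11 was at -0.20 (adjusted p = 0.004618). Without mouse 9, whose Tardbp level overlapped the controls, the 6 rising genes lay between 0.91 and 1.40.

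How far the genes moved together was measured as the correlation of log2 CPM across mice of a genotype, after the mean of each batch was subtracted. This gave 42 correlations, 21 in each genotype, tested by 100000 permutations within batch. In rNLS8 mice (n = 10) the 15 pairs without Parp11 had Pearson r between 0.55 and 0.96, and 6 of them passed at an adjusted p below 0.05. The strongest were Parp9 with Parp14 (r = 0.96, p = 0.00053, adjusted p = 0.0111, rho = 0.95, p = 0.00074, permutation test) and Parp12 with Parp14 (r = 0.91, p = 9e-05, adjusted p = 0.00378, rho = 0.95, p = 0.00029, permutation test). The other 4 were Parp9 with Parp12 (r = 0.87), Parp3 with Parp9 (0.87), Parp14 with Dtx3l (0.89) and Parp3 with Parp14 (0.85), with permutation p from 0.0009 to 0.00518 and adjusted p from 0.0126 to 0.0363. By Spearman's rho 10 pairs passed.

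Without the 2 mice farthest from the median of the first gene, the 15 correlations ranged from 0.39 to 0.91. For Parp9 and Parp14 r was then 0.91, without mice 1 and 8, and for Parp10 with Dtx3l it was 0.39, without mice 8 and 10. Within batch B alone (n = 7) the 15 pairs ranged from 0.45 to 0.97 and 3 passed by permutation, namely Parp9 with Parp12, Parp9 with Parp14 and Parp12 with Parp14. Batch A held 3 rNLS8 mice, too few for a value. The partners Parp9 and Dtx3l were correlated at 0.81 (rho = 0.81, permutation p = 0.02, adjusted p = 0.0791), which did not pass.

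In the 11 controls the same 15 pairs had r between -0.69 and 0.64, and 0 of 21 pairs passed. The largest were Parp3 with Parp10 (r = 0.64, permutation p = 0.00873, adjusted p = 0.0524) and Parp12 with Parp14 (r = -0.69, permutation p = 0.0813, adjusted p = 0.213). Pairs with Parp11 had r between 0.18 and 0.66 in rNLS8 mice and between -0.48 and 0.33 in controls, and none passed. The difference in correlation between the genotypes was not tested.

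**Figure D4:**
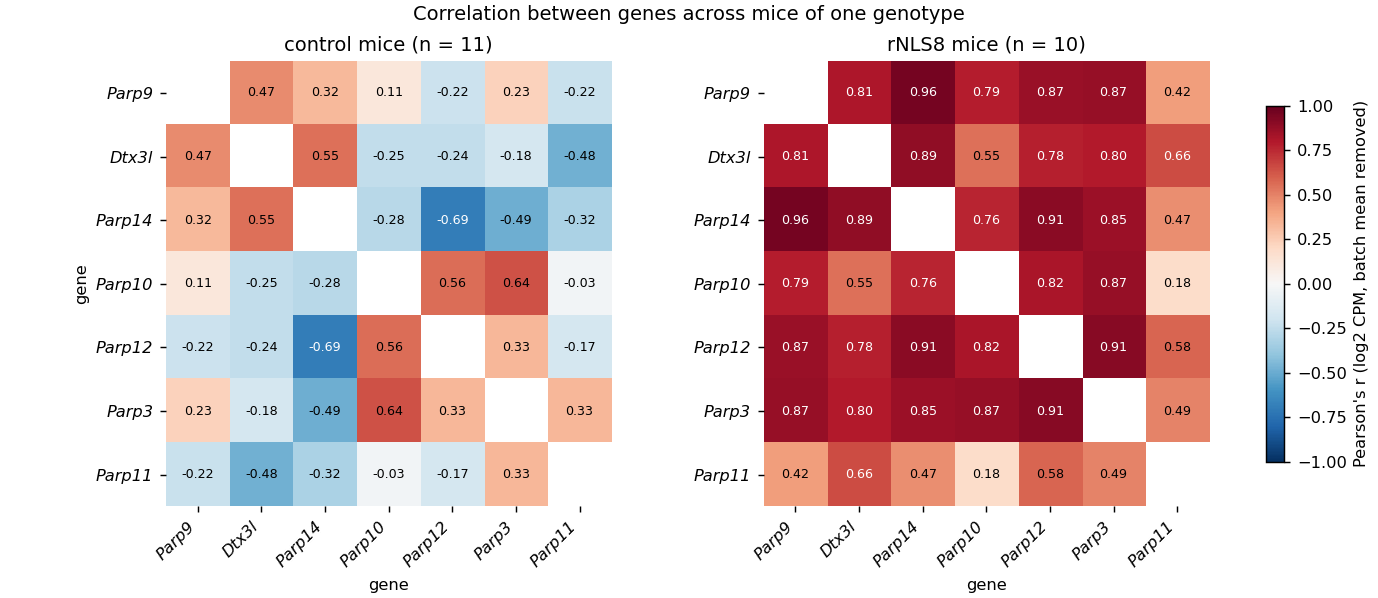
Pearson correlation of log2 CPM between genes across control mice (left, n = 11) and rNLS8 mice (right, n = 10), with batch means removed and each r printed in its cell. Pairs without Parp11 reached 0.55 to 0.96 in rNLS8 mice and -0.69 to 0.64 in controls.

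Whether the genes rose by different amounts was tested on the log2 ratio of each pair, compared between genotypes by exact permutation within batch over 120120 assignments, two-sided, with adjustment over 21 pairs. All 6 pairs with Parp11 differed, by at least 1.04 on the log2 scale in size, with p = 8.33e-06, the smallest this exact permutation test can give. Of the 15 pairs without Parp11, 7 passed. Parp14 rose more than Dtx3l by 0.33 (adjusted p = 0.00519 by exact permutation), and its ratio to Dtx3l lay above all controls in 4 of 10 rNLS8 mice. The log2 ratio of Parp12 to Parp14 fell by 0.46 (adjusted p = 0.00686, exact permutation), and Parp9 rose more than Parp12 by 0.36 (adjusted p = 0.00686, exact permutation). Parp10 rose more than Parp12 by 0.26 (adjusted p = 0.019, exact permutation).

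The other 3 passing pairs were closer to the threshold. The ratio of Parp3 to Parp14 fell by 0.38 (adjusted p = 0.0365), that of Parp3 to Parp9 fell by 0.28 (adjusted p = 0.0401), and Parp9 rose more than its partner Dtx3l by 0.23 (adjusted p = 0.0467), all by exact permutation. Of 10 fits that each left out 1 rNLS8 mouse, the call was lost in 8 for Parp9 against Dtx3l, in 7 for Parp3 against Parp9 and in 5 for Parp3 against Parp14. The value for Parp9 against Dtx3l was 0.18 without mouse 9 (adjusted p = 0.113027), that for Parp3 against Parp9 -0.24 without mouse 10 (adjusted p = 0.0772548), and that for Parp3 against Parp14 -0.35 without mouse 10 (adjusted p = 0.0649621), by exact permutation. The 8 pairs that did not pass differed by between -0.20 and 0.13, which does not show that they rose alike. One of them, Parp3 against Parp10, passed without mouse 3 (-0.21, adjusted p = 0.0348379, exact permutation). In batch B alone, 2 of the 15 passed, Parp12 against Parp14 and Parp14 against Dtx3l.

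Parp14, Dtx3l and Parp9 lie next to each other on mouse chromosome 16 (GRCm38, GENCODE M21). Parp14 is at chr16:35832874-35871544 on the minus strand, Dtx3l at chr16:35926511-35939151 on the minus strand and Parp9 at chr16:35938470-35972605 on the plus strand, within 139732 bases in all. The 5′ ends of Dtx3l and Parp9 overlap head to head over 682 bases, and 458 exonic bases are shared, 9.40% of the exonic bases of Parp9. The sources used here do not say whether strand was used in counting, so reads in this overlap cannot be assigned to either gene with certainty. The genes on the far sides of this trio were Hspbap1, higher by 0.40 ± 0.07 (adjusted p = 7.41e-05), and Kpna1, which fell by 0.39 ± 0.05 (adjusted p = 2.498e-06), so that neither neighbour rose by the 1.02 to 1.36 of the 3 genes.

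The other 4 genes lie elsewhere. Parp3 (chr9:106470322-106476949, minus strand) shares 20 exonic bases with Rrp9 on the opposite strand, which rose by 0.51 ± 0.06. Parp10 (chr15:76231174-76243441, minus strand) shares 205 exonic bases, 4.80% of its own, with Plec on the same strand, higher by 0.49 ± 0.06, and these reads too are uncertain. Parp12 (chr6:39086410-39118349, minus strand) and Parp11 (chr6:127446840-127494261, plus strand) are on the same chromosome and moved in opposite directions. The coding neighbours of Parp12 were Tbxas1 (0.36 ± 0.13) and Kdm7a (-0.063 ± 0.092, adjusted p = 0.6141), and those of Parp11, Ccnd2 and Cracr2a, were at -0.0029 and 0.023, neither past the threshold.

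Promoter windows of 300 bases, 250 before to 50 after a start site, were found in RefSeq for 4 of the 7 genes (GRCm38.p6, Parp11 with 2 start sites). They were searched on both strands for GAAANNGAAA, the core of the interferon-stimulated response element, for TTCNNNGAA, the gamma-activated sequence, and for GAAACT, the end of the interferon-stimulated element. Over all 32851 windows, 3.44% held the first, 8.3% the second and 15.8% the third. The upstream stretches outside exons of coding genes are shown 5′ to 3′ for the gene that fell and for the 3 rising genes with a window, with every matched letter in capitals.
Parp11, chr6:127446590-127446839, plus strand: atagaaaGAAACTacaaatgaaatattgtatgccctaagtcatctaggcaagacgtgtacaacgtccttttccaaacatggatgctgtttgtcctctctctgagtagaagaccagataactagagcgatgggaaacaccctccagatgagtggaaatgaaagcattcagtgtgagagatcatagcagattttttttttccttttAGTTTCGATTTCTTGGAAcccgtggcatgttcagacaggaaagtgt
Dtx3l, chr16:35939207-35939277, minus strand: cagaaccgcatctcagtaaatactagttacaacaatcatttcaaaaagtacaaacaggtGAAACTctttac
Parp12, chr6:39118350-39118599, minus strand: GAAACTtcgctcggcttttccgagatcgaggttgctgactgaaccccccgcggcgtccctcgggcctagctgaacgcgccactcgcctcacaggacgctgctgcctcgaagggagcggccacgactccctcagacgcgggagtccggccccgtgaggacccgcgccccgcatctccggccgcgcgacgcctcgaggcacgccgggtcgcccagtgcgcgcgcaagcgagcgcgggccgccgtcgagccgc
Parp3, chr9:106476950-106477199, minus strand: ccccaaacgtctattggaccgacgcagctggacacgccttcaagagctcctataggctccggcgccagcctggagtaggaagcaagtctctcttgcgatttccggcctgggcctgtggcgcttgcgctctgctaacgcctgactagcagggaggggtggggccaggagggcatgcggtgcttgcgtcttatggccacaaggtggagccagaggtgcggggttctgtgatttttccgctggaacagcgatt

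The Parp11 stretch was the one with a match to GAAANNGAAA, read on the opposite strand and starting 44 bases before the start site, and it overlapped a match to TTCNNNGAA, starting at 37 bases before it, and a match to GAAACT on the opposite strand. A further GAAACT lay at its far end. The window at the second Parp11 start site held 0 matches. The Dtx3l window held GAAACT 2 times, of which 1 is in the stretch shown, which lies inside the Parp9 gene, and the Parp12 window held it once at its far end. The Parp3 window held none of the 3 motifs. Matching letters are a description of these windows and were not tested as binding sites.

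Related genes were examined as lists. Of the 10 other PARP family genes, all were tested, 2 were higher, 2 lower and 6 were not called, with a median log2 fold change of 0.076. These shares are near those of all genes tested, 23.0% higher and 21.7% lower. Zc3hav1, the antiviral zinc finger protein, rose by 0.74 ± 0.09 (149 ± 18 to 245 ± 59 normalised counts, SD, adjusted p = 6.272e-07), and Parp1, the main DNA damage PARP, rose by 0.26 ± 0.05 (adjusted p = 0.0002172). Tnks2, a tankyrase that builds chains of ADP-ribose, fell by 0.62 ± 0.06 (3035 ± 150 to 1979 ± 246, adjusted p = 1.35e-08). Tiparp, a target of the aryl hydrocarbon receptor, fell by 0.37 ± 0.13 (adjusted p = 0.02521), a call that was lost without control mouse 5 and without rNLS8 mouse 9 or 10, with adjusted p up to 0.07237, and also with scaling by library size only, in batch A alone and in batch B alone.

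The 4 other Deltex ligases were all called higher, with smaller estimates than Dtx3l, a difference that was not tested. Dtx3 rose by 0.57 ± 0.06 (adjusted p = 3.604e-08), Dtx4 by 0.36 ± 0.05 (adjusted p = 5.422e-06), Dtx1 by 0.34 ± 0.05 (adjusted p = 7.599e-06) and Dtx2 by 0.25 ± 0.08 (adjusted p = 0.009712). Of 9 tested enzymes and proteins that remove or read ADP-ribose, 1 was higher, 3 lower and 5 not called, where 23.0% of all genes tested were called higher and 21.7% lower. The difference from the other lists was not tested. Macrod2, an ADP-ribose hydrolase with a macrodomain, fell by 0.87 ± 0.05 (1114 ± 114 to 616 ± 77 normalised counts, adjusted p = 2.199e-12), Adprh, which removes ADP-ribose from arginine, fell by 0.47 ± 0.05 (adjusted p = 1.823e-08), and the macrodomain histone Macroh2a1 fell by 0.36 ± 0.05 (adjusted p = 1.193e-06), while Macroh2a2 rose by 0.20 ± 0.06 (adjusted p = 0.01055). Of 11 tested genes that make or consume NAD, the substrate of PARPs, 1 was called, Naprt (0.25 ± 0.09, adjusted p = 0.02317), and that call was lost without rNLS8 mouse 8 (adjusted p = 0.06733) and under 4 of 11 alternatives.

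Of 16 genes of interferon signalling, 14 were tested, 10 were higher and 1 lower, where 23.0% of all genes tested were called higher and 21.7% lower, with a median log2 fold change of 0.41. Irf7, the interferon-induced regulator, rose by 3.21 ± 0.20 (49.6 ± 12.9 to 464 ± 225 normalised counts), Irf9 by 1.84 ± 0.11 (149 ± 18 to 529 ± 161) and the interferon-gamma receptor chain Ifngr2 by 0.78 ± 0.05 (914 ± 135 to 1552 ± 274), each with an edgeR adjusted p between 3.435e-12 and 6.267e-12. Ifnb1 and Ifng, interferons themselves and named here after their values were seen, had 0 counts in 20 and 19 of 21 mice, with 1 and 2 counts in all, too few for any comparison at this depth.

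**Figure D5:**
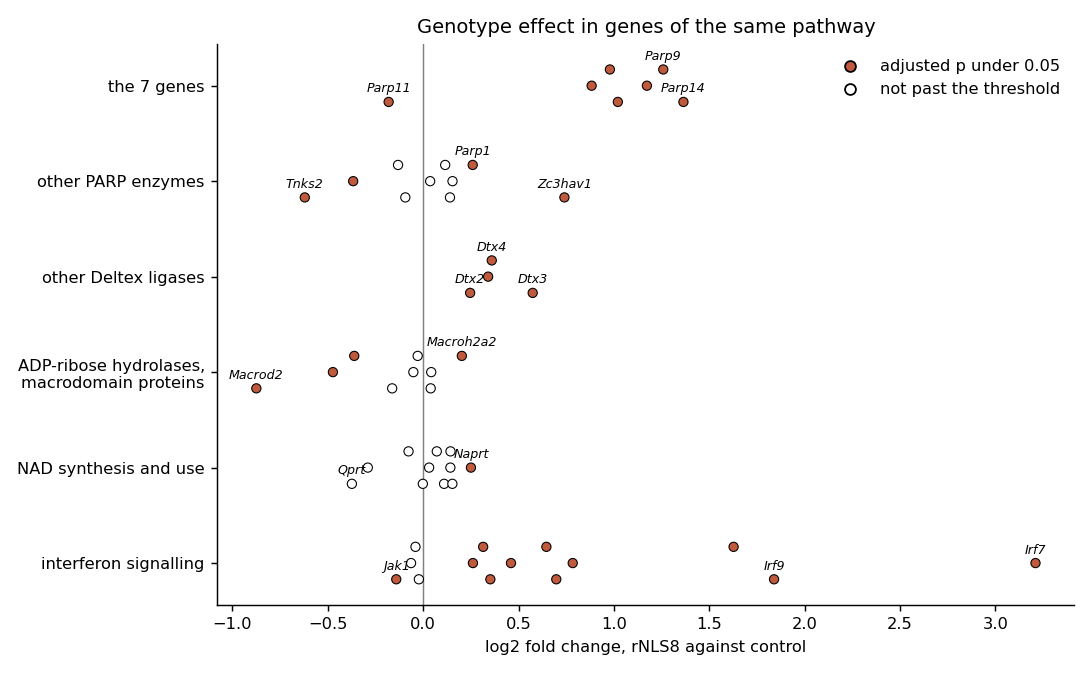
Log2 fold change of rNLS8 against control mice (horizontal axis) for the genes of 6 lists (rows), with filled points past an adjusted p of 0.05 and open points not past it, and a few genes named. The 7 genes spread from -0.18 to 1.36, other PARP family genes (row labelled other PARP enzymes) from -0.62 to 0.74 and interferon signalling genes from -0.14 to 3.21.

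Cell type markers moved in part with genotype, and their counts are set against the 23.0% of all genes tested that were called higher and the 21.7% called lower. Of 10 microglia markers 4 were higher (Aif1 at 0.47 and Tmem119 at 0.18 among them), P2ry12 fell by 0.35, and the median was 0.10. The Tmem119 call was lost under 4 of 11 alternatives. The summed microglia level was above all controls in 7 of 10 rNLS8 mice. Of 6 astrocyte markers, 4 fell, among them Slc1a2 (by 0.32) and Aqp4 (by 0.26, a call lost with scaling by library size only and in batch A alone), and Gfap, the intermediate filament of reactive astrocytes, rose by 1.03 ± 0.11. Of 7 neuron markers, 4 were lower, led by Snap25 (fell by 0.75) and Syt1 (fell by 0.53), and the call of Gad2 at -0.32 was lost in 11 of 21 fits without a single mouse and under 7 of 11 alternatives. Of 6 endothelial markers 1 was higher and 2 lower, and of 6 oligodendrocyte markers none was called, with log2 fold changes from -0.024 to 0.13 (edgeR).

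Of 5 tested monocyte and macrophage markers 1 was called higher, where 23.0% of all genes tested were. This was Lyz2, at 0.59 ± 0.20, which moved to 0.26 without rNLS8 mouse 8 (adjusted p = 0.04145). The Lyz2 call was lost in DESeq2 without batch, in batch A alone and in batch B alone, 3 of 10 alternatives. Apart from Cd4, the T cell, B cell and NK cell markers were at or near 0. None of Cd3d, Cd3e, Cd3g, Cd8a and Cd8b1 exceeded 6 counts in any mouse, and each was at 0 in 9 to 14 of 21 mice. None of the 6 B cell and NK cell markers exceeded 12 counts. Cd4, listed as a T cell marker, had 2707 counts in all, against 9, 16 and 17 for Cd3d, Cd3e and Cd3g. It fell by 1.24 ± 0.33, and which cells its reads came from was not tested. Choroid plexus markers varied widely among mice, between 15.1 and 2166 CPM in sum, with none of 4 called. Of 4 tested markers of other brain regions 2 were lower and none higher, where 21.7% of all genes tested were called lower. The raphe gene Tph2 fell by 0.99 ± 0.18, and the striatal gene Drd1 was at -0.66 ± 0.25. The Drd1 call was lost in 9 of 21 fits without a single mouse (edgeR adjusted p up to 0.09996) and under 6 of 11 alternatives. Drd2 (-0.059 ± 0.359) and Prox1 (0.11 ± 0.14) were not called. The part of cell composition or dissection in the PARP changes was not tested.

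Finally, the genes whose level across mice was most like that of each member were found among 14583 others with a mean of at least 50 counts, by Pearson r of log2 CPM over 21 mice after subtraction of the mean of each genotype in each batch. These r are descriptions over mice that share batch and handling. The mice include rNLS8 mouse 8, the highest of its genotype for every rising gene, and the ranking was not repeated without it. Parp14 was most like Ifih1 (r = 0.87), a sensor of double-stranded RNA, Rsad2 (0.85), an antiviral enzyme, and Gm40815 (0.84). Parp9 was most like Oas1a (0.84), an oligoadenylate synthetase, Ifit1 (0.83), an antiviral RNA-binding protein, and again Gm40815 (0.83). Dtx3l was most like Zc3hav1 (0.81), Cmpk2 (0.80) and Mpeg1 (0.79), and Parp14 was at rank 4 (0.78).

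The remaining members had other nearest genes. Parp3 was most like Entpd1 (0.83), C4b (0.81) and Rida (0.80), with Parp10 at rank 6 (0.78). Parp10 was most like Rnaset2b (0.86), Cd151 (0.82) and Cd63 (0.81), and Parp12 like Agbl3 (0.85), Il15ra (0.80) and Tep1 (0.79). Parp11 was most like Stat5b (0.80), Zfp189 (0.77) and Uhrf2 (0.75), and its closest gene within the group, Parp3, ranked 740 (r = 0.40). Of the 8 genes nearest to Parp9, Parp14 and Dtx3l, Ifit1 (log2 fold change 3.04), Oas1a (2.69) and Rsad2 (2.23) rose with estimates above those of the members, and Ifih1 (0.83), Zc3hav1 (0.74), Mpeg1 (0.74) and Cmpk2 (0.49) rose with estimates below them, differences that were not tested. Gm40815, near to both Parp9 and Parp14, fell by 0.37 ± 0.10 (adjusted p = 0.003038). Of the 3 genes nearest to Parp3, the complement component C4b rose by 2.12, and Entpd1 (-0.089, adjusted p = 0.2201) and Rida (-0.095, adjusted p = 0.3271) were not called.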

How the data were processed

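Poly-A RNA of neocortex from 21 mice was sequenced (the study's methods name brain cortex and, in a figure legend, hippocampus). Reads were aligned by the authors to GRCm38, and the deposited table holds raw integer counts for each symbol, which were not normalized. The submitters' processing notes list HISAT, HISAT2, Bowtie, Bowtie2 and RSEM, and the role of each and the use of strand are not given in the sources used here. Further copies of symbols (2553 rows) were kept, and all 7 genes studied have 1 row each.

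Groups came from the genotype labels and batches A and B from the batch labels. Genotypes were compared with edgeR 4.0.16 in R 4.3.3 (minimum count 10, minimum total 15, TMM, quasi-likelihood test with genotype and batch, Benjamini-Hochberg adjustment over 18248 genes, threshold 0.05). Counts were normalised by dividing by each effective (TMM-scaled) library size, times the mean of these sizes, and log2 CPM used a prior count of 2. Correlations and log2 ratios were tested by permutation within batch with NumPy 2.4.6. All tests were two-sided, and the scripts were tested on simulated data. Alternatives were DESeq2 1.42.0 (batch in or out of the model), edgeR with genotype alone, library-size and upper-quartile scaling, no filter, a minimum count of 50, each batch alone, no further copies, the level of Xist as a covariate, a prior count of 0.5 and leaving out each mouse. Chosen after seeing the data were batch A without rNLS8 mouse 8, the spread without each mouse and the neuron sum without Snap25 and Syt1. Intervals from counting cover counting error only.

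The members and lists were chosen with earlier results of these data known. Genes named are the 7 members, Zc3hav1, Tiparp, Tardbp, up to 4 genes with the largest absolute change past the threshold from each list, the 3 genes most like each member and the coding neighbours on the chromosome, which were added after the values were seen. Marker genes that were not past the threshold or not tested, and Ifnb1 and Ifng, fall outside this rule and were likewise named after their values were seen. ADP-ribose lists held 3 alias symbols that are not row names of the table. Some genes that this rule names are not reported here.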

Additional observations from a re-analysis of the deposited data

Results flagged for a closer look

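In the rNLS8 group (n = 10), the highest value stood apart from the rest for all 6 genes that rose, always in rNLS8 mouse 8 of batch A. The measure is the gap to the nearest other mouse divided by the range of the group, which is compared with Dixon's critical value of 0.466 for 10 samples. The ratio was 0.779 for Parp12, 0.661 for Parp3, 0.497 for Parp14, 0.494 for Parp9, 0.470 for Dtx3l and 0.468 for Parp10, so that the last 2 were just past the limit. Parp11 showed no such gap.

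The summed level of monocyte and macrophage markers was highest in the same mouse, with a ratio of 0.740 (63.8 CPM against 27.3 in the next mouse). rNLS8 mouse 1 of batch B, the lowest for the 6 genes, stood apart for a low sum of endothelial markers (0.648, 162 CPM against 192 in the next mouse) and for a high sum of markers of other brain regions (0.474, 142 CPM against 90.5). In all 9 of 19 sets of values were past the limit, where chance gives about 0.95, about 1 in 20, and the sets are not independent because they share mice. Control values were not searched because that group holds 11 mice.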

How the results depend on the processing

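The 6 rising genes kept their direction and call under all 11 alternatives and in all 21 fits that left out a mouse, with log2 fold changes from 0.76 for Parp12 in batch B alone to 1.68 for Parp9 in batch A alone. Parp11 stayed negative throughout, but its call was lost with scaling by library size only (-0.10) and in batch A alone (-0.17), so that 0 members were lower there. The first shifted the median of all genes by 0.076 and moved the share of calls that were higher from 51.4% to 67.9%. The second gave 2195 genes past the threshold against 8154, with 3 and 4 mice per group. In batch A without rNLS8 mouse 8, added after seeing the data, 1171 genes were called, the 6 rising genes kept their call and Parp11 was at -0.24 and not called, so that 0 members were lower. In the fits without single mice, Parp11 ranged from -0.21 to -0.16 and the number of genes called from 7805 to 8363. Of the 39 other named genes, 17 kept their call in every fit. Calls lost in batch A alone included Dtx1, Dtx2, Macroh2a1, Macroh2a2, Aif1, Slc1a2, Aqp4, Syt1, Gad1 and Tph2. Those of Kdr and Flt1 were lost in each batch alone, and those of Aqp4, Kdr and Flt1 with scaling by library size only.

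For log2 ratios between members, 13 of 21 pairs passed in all mice, 8 in batch B alone and 10 to 13 without single rNLS8 mice. Parp3 against Dtx3l ranged from -0.074 to 0.00231 there, turning positive without mouse 10, and did not pass in any fit. For correlations, 6 pairs passed in all mice and 3 in batch B alone. In batch B alone the sign turned for Parp10 and Parp11 in rNLS8 mice (-0.22) and, in controls, for Parp3 and Parp12 (-0.10), Parp3 and Dtx3l (0.10), Parp9 and Parp12 (0.048), Parp10 and Parp14 (0.11), Parp10 and Dtx3l (0.65) and Parp12 and Dtx3l (0.59), none of which passed in either fit. The interaction of genotype and batch called 0 genes in edgeR and 1 in DESeq2. The causes of these differences were not tested.

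No paired analysis was possible because replicate numbers were given in accession order and do not pair mice. Depth limits Parp10 most, at 30 to 56 counts in controls, and interferon genes at 0 to 1 count.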
